A study of Homo sapiens with 16 samples.

Results

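The mitochondrial ribosomal proteins were taken as every gene of the expression table whose symbol starts with MRPL or MRPS, goes on with a number and may end in A, B or C. The rule took 78 of the 43388 genes of the table, and 74 of them passed the filter on low values, set at 1 TPM for the average of the 16 libraries, which 16122 genes passed in all. TPM counts reads per base of gene length and scales each library to the same sum. Levels can be set side by side between genes only as far as the gene lengths used are right. Those lengths differed widely, with 931 bases for MRPS6, 3970 for MRPL55 and 12405 for MRPL42. Of the 78 members, 51 encode proteins of the large subunit of the mitochondrial ribosome and 26 encode proteins of the small subunit. MRPS36 carries the symbol but is known as a subunit of the 2-oxoglutarate dehydrogenase complex, and MRPS18A and MRPS30 are named for the small subunit but sit in the large one.

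Mitochondria keep a small genome of their own, and a dedicated ribosome inside the organelle translates the few messages it encodes, all of them for subunits of the respiratory chain and ATP synthase. The RNA of that ribosome is made from mitochondrial DNA, while all of its proteins are encoded in the nucleus, made in the cytoplasm and imported. Some of these proteins descend from bacterial ribosomal proteins and others are found only in mitochondrial ribosomes, and heart muscle, which depends on oxidative phosphorylation, uses the particle heavily.

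The libraries came from cardiomyocytes differentiated from induced pluripotent stem cells of the human line WTC11, of unmodified (WT) genotype, by the GiWi protocol, in which Wnt signalling is first switched on and then inhibited. The Day 16 group was collected in standard RPMI/B27, a basal medium with a serum-free supplement. The other groups were collected on Day 30 after 14 days in standard RPMI/B27, in RPMI_glcM/B27, which is RPMI/B27 with glucose lowered to 5 mM to match plasma-like medium, or in HPLM/B27, in which human plasma-like medium replaced RPMI. Each group had 4 libraries, and the study asked which changes in HPLM/B27 go beyond those that physiologic glucose gives. Each library is 1 well of 1 cell line, so the p-values measure the spread between wells and not between lines or differentiations.

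The deposited values hold between 7744784 and 16183695 recovered reads per library. The defining markers of cardiomyocytes (TNNT2, ACTN2, MYH6, MYH7, TTN, MYL7 and NKX2-5) all passed the filter, and their summed level lay between 11500 and 15700 TPM in every library. The summed fibroblast-like markers (8 genes, 6 over the filter) ran from 240 to 436 TPM on Day 16 and from 118 to 299 TPM across the Day 30 libraries, and the 5 markers of dividing cells ran from 245 to 320 TPM and from 68.8 to 187 TPM. The 6 hepatic endoderm-like markers reached 413 to 739 TPM on Day 16, 313 to 551 TPM in Day 30 RPMI/B27 and 64.2 to 202 TPM in the other 2 media. The 4 smooth muscle-like markers summed to 200 to 892 TPM with MYH11 at 0 in every library, and the 4 endothelial-like markers to 13.1 to 54.0 TPM, with 1 over the filter and VWF at 0 in 15 libraries. In bulk libraries fewer cells of a type and less RNA per cell cannot be told apart, and the part of these other cells in the results on the members was not tested. Libraries 3 and 4 of Day 30 RPMI/B27 stood apart, with RNR1, the small-subunit RNA of the mitochondrial ribosome, at 14390 and 29280 TPM and the 2 lowest scaling factors, 0.783 and 0.718. The other 14 libraries had factors of 0.874 to 1.31. The counts over all members in each comparison with Day 30 RPMI/B27 are therefore also given without those 2 libraries and after rescaling. Values of single genes and counts by role are given in that way only where stated, and are otherwise those of all libraries in TPM.

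Most members were expressed at a moderate level, and MRPS6 stood far above the rest in TPM. The mean level of the 74 members over all libraries ran from 3.03 TPM for MRPL55 to 258 TPM for MRPS6, with a median of 25.2 TPM, where the median of all genes that passed the filter was 7.42 TPM. Of the members, 54 lay between 10 and 50 TPM, 11 lay lower and 9 lay higher. MRPS6 was 3.09 times the next member, MRPS34 at 83.6 TPM, and 10.3 times the median member, and ranked 172 among all genes by mean level. In reads MRPS6 stood less apart, at 620 to 1773 per library, where MRPS5 had 764 to 1467 and MRPL42 had 638 to 1535. The median member averaged 173 reads. After MRPS34 came MRPS5 at 66.3 TPM, MRPS35 at 63.5 TPM and MRPL21 at 62.2 TPM. At the low end above MRPL55 stood MRPS2 at 4.93 TPM, MRPS18C at 5.14 TPM, MRPS36 at 5.80 TPM and MRPL36 at 6.10 TPM.

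**Figure D1:**
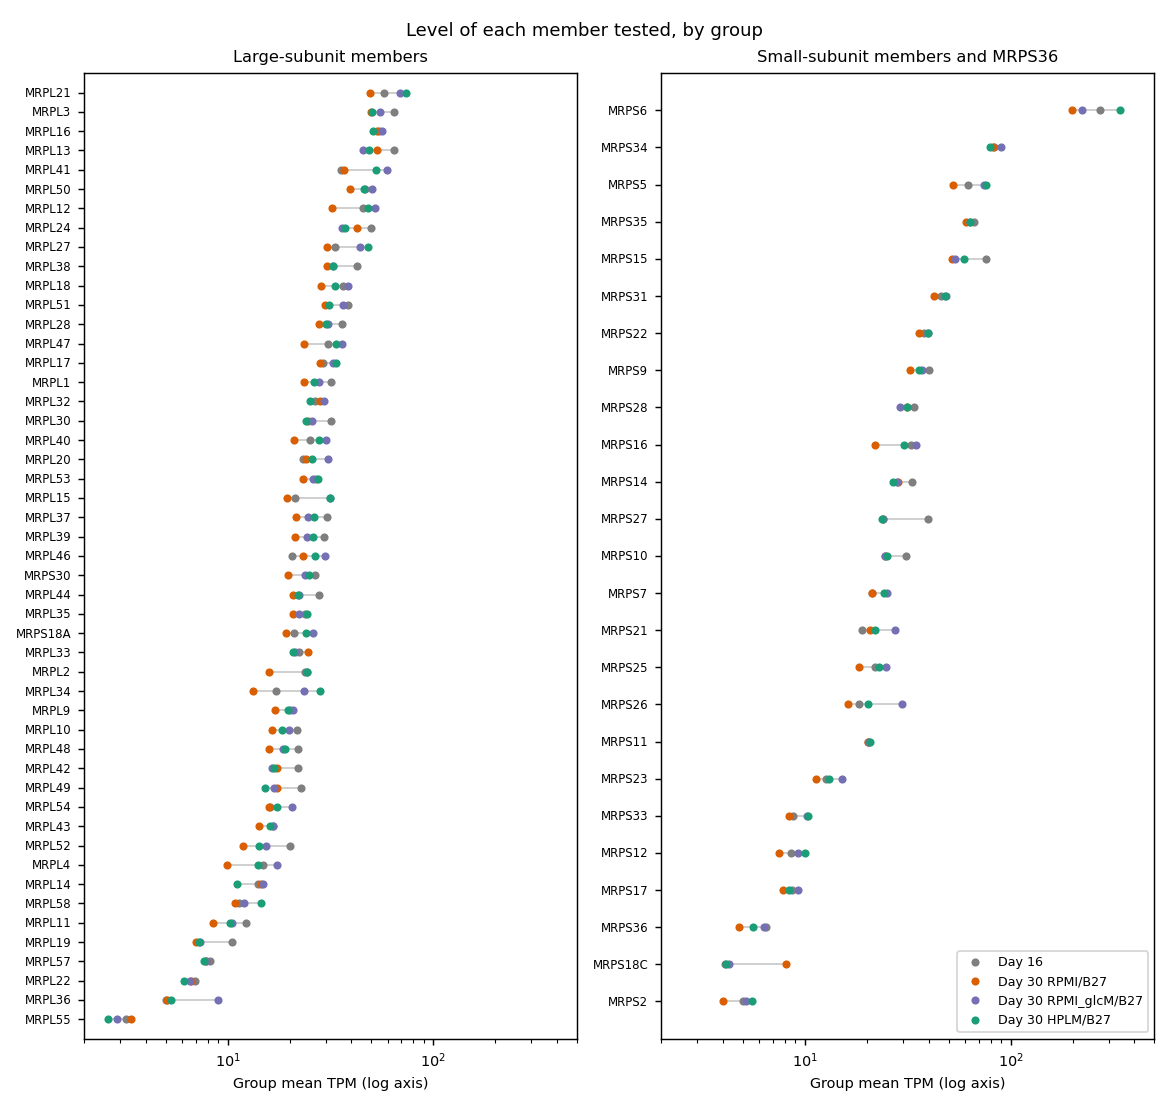
Mean TPM of the 74 members in each group (4 libraries a group, log axis), large-subunit members on the left and small-subunit members with MRPS36 on the right, ordered by level. MRPS6 lies to the right of all other members in every group, and most members spread over less than 1.5 times between their lowest and highest group.

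The classes of protein had medians close to each other. The 30 large-subunit members with a bacterial counterpart had a median of 26.0 TPM and the 19 large-subunit members found only in mitochondria had a median of 23.7 TPM. The 15 small-subunit members with a bacterial counterpart had a median of 26.3 TPM, and the 9 without one had a median of 27.7 TPM. The order of the members by level was nearly the same in each group, with Spearman's rho of the members' group means between 0.905 and 0.973 over the 6 pairs of groups, given as a description because the groups share genes, gene lengths and library type. A member's highest group mean was 1.34 times its lowest in the median, over 1.5 times in 16 members and over 2 times only in MRPL34.

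Of the 4 members below the filter, MRPS24 had reads in 1 library only, 3 of them, and averaged 0.0391 TPM, and the read-through gene URGCP-MRPS24, whose exons cover it on the same strand, was listed at 0. MRPS24 encodes a small-subunit protein, and the part of read assignment in its low value was not tested. MRPL45 averaged 0.128 TPM and MRPL23 0.152 TPM, both large-subunit proteins, and MRPS18B, a small-subunit protein, averaged 0.179 TPM with 0 to 5 reads per library. A second entry under the name MRPL45_1, which the rule does not take, averaged 4.21 TPM. The 74 members over the filter had 15 to 1773 reads in a library, with a median member mean of 173 reads, and 63 of them had at least 50 reads in every library.

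The exons of 27 of the 78 members overlap those of another gene of the table, 5 of them on the same strand, and the sources used here do not state whether the counting used strand, so reads of such pairs may have been split or shared. The longest overlaps are those of MRPS25 with NR2C2, over 7157 bases with NR2C2 at 7.74 TPM, and of MRPS22 with COPB2, over 6378 bases with COPB2 at 103.9 TPM, both on opposite strands.

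As a share of each library the members together were lowest in Day 30 RPMI/B27. Their summed level was 2402, 2308, 2435 and 2262 TPM in the Day 16 libraries and 2153, 2119, 1917 and 1630 TPM in Day 30 RPMI/B27. It was 2382, 2371, 2243 and 2237 TPM in RPMI_glcM/B27 and 2322, 2526, 2297 and 2250 TPM in HPLM/B27. All 4 Day 30 RPMI/B27 libraries lay below all 12 others, and libraries 3 and 4, which stood apart by RNR1, were the lowest of all. The sum over large-subunit members was 1.72 to 1.92 times that over small-subunit members without MRPS6 in every library.

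**Figure D2:**
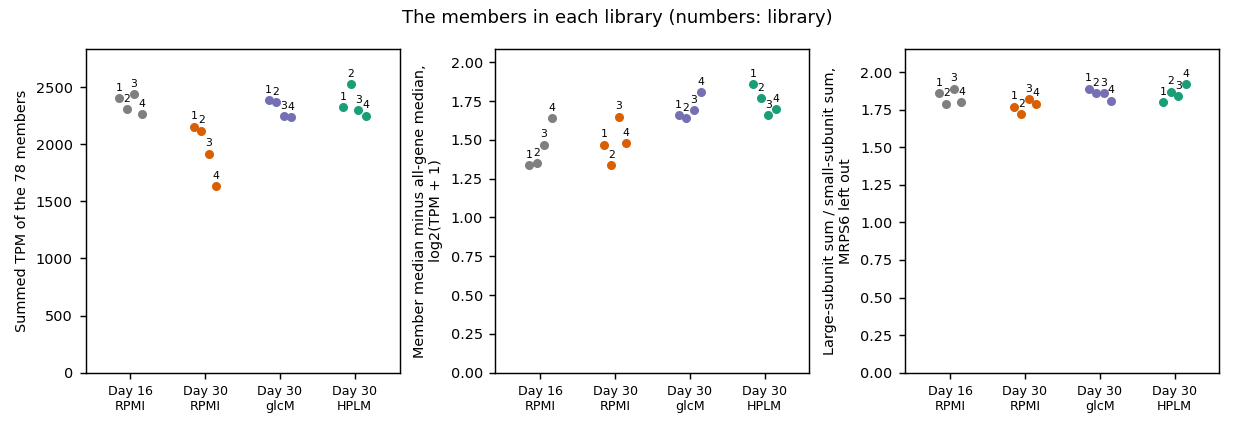
Summaries of the members in each of the 16 libraries (points, numbered by library): their summed TPM, the difference between the members' median and the median of all tested genes on the log2(TPM + 1) scale, and the ratio of large-subunit to small-subunit sums without MRPS6. The summed level is lowest in the 4 Day 30 RPMI/B27 libraries, the difference from the median gene is 1.64 or more in all 8 libraries of RPMI_glcM/B27 and HPLM/B27, and the subunit ratio stays between 1.72 and 1.92.

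Set against the other genes of the same library the order of the groups changed. The median member stood above the median tested gene by 1.34, 1.35, 1.47 and 1.64 on the log2(TPM + 1) scale in the Day 16 libraries and by 1.47, 1.34, 1.65 and 1.48 in Day 30 RPMI/B27. The difference was 1.66, 1.64, 1.69 and 1.81 in RPMI_glcM/B27 and 1.86, 1.77, 1.66 and 1.70 in HPLM/B27. Day 16 and Day 30 RPMI/B27 overlapped fully, and the 8 libraries of the other media lay at or above 1.64, a value that 1 Day 16 library reached and 1 Day 30 RPMI/B27 library passed.

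The group in which a member was highest or lowest shows the same dependence on scale. In TPM the lowest mean of 51 of the 74 members was that of Day 30 RPMI/B27, as it was for 31% of all tested genes, and the highest mean was that of Day 16 in 29 members (63.9% of all genes), of RPMI_glcM/B27 in 27 (16.2%) and of HPLM/B27 in 15 (8.83%). After rescaling the libraries by median-of-ratios factors, which set the median gene equal between libraries, the lowest mean was that of Day 16 in 42 members (31.8%) and that of Day 30 RPMI/B27 in 24 (21.3%). HPLM/B27 then held the highest mean of 29 members (21.5%) and RPMI_glcM/B27 that of 25 (22.2%). In both scales few members were lowest in RPMI_glcM/B27, 4 in TPM (20.4% of all genes) and 6 after rescaling (23.8%). HPLM/B27 was lowest in 12 members in TPM (38.5%) and in 2 after rescaling (23.0%).

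Between Day 16 and Day 30 in the same medium, RPMI/B27, 13 members fell and none rose. The test was limma on log2(TPM + 1) with Benjamini-Hochberg adjustment over all 16122 genes, a call was an adjusted p under 0.05, and 26 members had an unadjusted p under 0.05. Of all tested genes 17.8% fell and 2.08% rose, so the share of members that fell was that of the genes at large. The median member changed by −0.24 on the log2 scale and the median tested gene by −0.28. In 13 members all 4 Day 30 libraries lay below all 4 Day 16 libraries, and 16.2% of all genes did so. No member lay above in all libraries, where 1.72% of all genes did.

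MRPS27, a mitochondria-specific small-subunit protein with pentatricopeptide repeats, showed the largest fall. It was at 40.2, 46.4, 39.3 and 32.4 TPM on Day 16 and at 35.4, 27.7, 17.9 and 14.3 TPM in Day 30 RPMI/B27. The highest Day 30 value lay above the lowest Day 16 value, so the groups overlapped, and the 2 lowest libraries were those that stood apart. Its log2 fold change was −0.78 ± 0.21 (SE, adjusted p = 0.018, n = 4 and 4). It was at 25.6, 24.1, 23.0 and 22.8 TPM in RPMI_glcM/B27 and at 23.3, 27.5, 24.3 and 19.4 TPM in HPLM/B27, below every Day 16 library in both media. The fold changes there were −0.70 and −0.72 (adjusted p = 0.0268 and 0.0204), and after rescaling all 3 falls still passed, at −0.45, −0.44 and −0.39 (adjusted p = 0.00809, 0.00633 and 0.0137). MRPS27 lies on chromosome 5, from 72219403 to 72320240 (GRCh38), and 276 bases of its exons are shared with PTCD2 on the opposite strand.

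MRPL52, a mitochondria-specific large-subunit protein, fell by 0.72 on the log2 scale in Day 30 RPMI/B27 (adjusted p = 0.00879) and also passed after rescaling, at −0.41 (adjusted p = 0.0348). Its levels were 23.38, 21.04, 20.25 and 15.52 TPM on Day 16 and 11.7, 16.0, 11.9 and 8.13 TPM in Day 30 RPMI/B27. Only the second Day 30 library reached the range of Day 16. The other 11 members that fell were MRPS16, MRPS15, MRPL19, MRPL4, MRPL12, MRPL37, MRPL38, MRPL39, MRPS6, MRPL48 and MRPS9, with log2 fold changes of −0.60 to −0.31. After rescaling none of those 11 passed, MRPS9 stood at 0.02, and 1 member rose, MRPS21, by 0.42 (adjusted p = 0.023), where 8.62% of all genes rose and 8.91% fell. In limma-voom on recovered reads 1 member rose and 1 fell (10.3% and 11.5% of all genes). Without libraries 3 and 4 of Day 30 RPMI/B27, 1 member fell and none rose on the TPM scale, where 5.33% of all genes fell and 4.33% rose, and the median member stood at −0.11 and the median gene at −0.02. With the rest rescaled, 2 fell and none rose (7.41% and 7.59%).

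The largest positive value in this comparison was that of MRPS18C, and it did not pass. It was at 2.38, 2.68, 3.93 and 7.44 TPM on Day 16 and at 3.25, 3.86, 12.5 and 12.6 TPM in Day 30 RPMI/B27, a log2 difference of 0.72 ± 0.39 (SE, adjusted p = 0.188). The 2 high libraries are again the ones that stood apart. Over all annotated transcripts MRPS18C shares 1956 bases of exon with ABRAXAS1 on the opposite strand, which averaged 15.2 TPM. That is more than the 1676 bases behind the MRPS18C values, so not all of the overlap can lie in them. Its paralog MRPS18A, a large-subunit protein, did not pass in any comparison on the TPM scale and ran from 15.1 to 27.7 TPM over the 16 libraries.

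In RPMI_glcM/B27 on Day 30 against Day 16, 8 members rose and 5 fell, where 3.34% of all genes rose and 17.8% fell. The median member changed by 0.03 on the log2 scale and the median gene by −0.22. The members that rose were MRPL36, MRPL41, MRPS26, MRPL15, MRPL46, MRPS21, MRPL34 and MRPL20, by 0.38 to 0.74 on the log2 scale, and those that fell were MRPS27, MRPS15, MRPL13, MRPL19 and MRPL24, by 0.46 to 0.70. In 9 members the groups did not overlap and RPMI_glcM/B27 was higher (4.24% of all genes), and in 8 it was lower (25.9%). MRPL36, the small large-subunit protein with the largest rise, was at 4.967, 3.653, 4.465 and 7.003 TPM on Day 16 and at 6.93, 9.04, 9.46 and 10.4 TPM in RPMI_glcM/B27. Only the lowest RPMI_glcM/B27 library lay within the range of Day 16, and the difference of 0.74 ± 0.22 (SE) had an adjusted p of 0.0223. After rescaling 22 members rose and 1, MRPS27, fell, against 13.4% and 14.2% of all genes, and in limma-voom 23 rose and 1 fell (14.4% and 15.2%).

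In HPLM/B27 on Day 30 against Day 16, 3 members rose and 4 fell, where 3.0% of all genes rose and 22.4% fell. The median member changed by −0.07 on the log2 scale and the median gene by −0.29. MRPL34, MRPL41 and MRPL15 rose, by 0.67, 0.57 and 0.54, and MRPS27, MRPL49, MRPL19 and MRPL13 fell, by 0.72, 0.55, 0.47 and 0.40. The groups did not overlap in 6 members with HPLM/B27 higher (3.77% of all genes) and in 11 with HPLM/B27 lower (32.1%). After rescaling 24 members rose and MRPS27 alone fell, against 12.9% and 12.5% of all genes, and in limma-voom 24 rose and 1 fell (14.7% and 14.8%). These comparisons share the 4 Day 16 libraries, so their lists are not independent of each other.

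MRPL19, a bacterial-type large-subunit protein, fell in all 3 Day 30 media on the TPM scale. It was at 11.27, 9.346, 11.02 and 10.34 TPM on Day 16 and at 8.46, 7.93, 5.33 and 6.34 TPM in Day 30 RPMI/B27. It was at 7.98, 7.91, 6.15 and 7.33 TPM in RPMI_glcM/B27 and at 7.23, 7.33, 7.09 and 7.45 TPM in HPLM/B27. All 12 Day 30 libraries lay below all 4 Day 16 libraries, with log2 fold changes of −0.54, −0.47 and −0.47 (adjusted p = 0.0127, 0.0216 and 0.0184), of which none passed after rescaling.

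**Figure D3:**
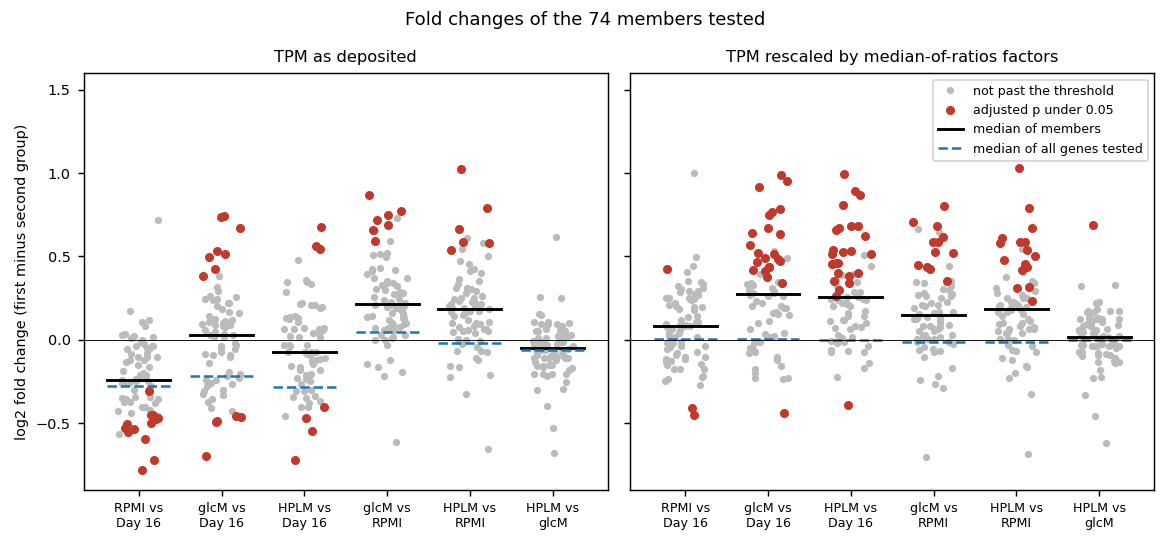
Log2 fold change of each of the 74 members (points) in the 6 comparisons, first group minus second, for TPM as deposited on the left and after median-of-ratios rescaling on the right, with members past an adjusted p of 0.05 in red, the members' median as a solid line and the median of all tested genes as a dashed line. Against Day 30 RPMI/B27 the members that passed are all positive on both scales, while against Day 16 the members' median moves with the scale, from 0.03 to 0.27 for RPMI_glcM/B27 and from −0.07 to 0.26 for HPLM/B27.

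Between media on Day 30, each member that passed the test in RPMI_glcM/B27 or HPLM/B27 against standard RPMI/B27 was higher there, and none was lower. Of 10 such members 3 passed in both media. These 2 are called the low-glucose media below, although HPLM/B27 also differs in the rest of its basal medium. In RPMI_glcM/B27 against RPMI/B27, 7 members rose and 0 fell, where 1.36% of all tested genes rose and 0.837% fell. The median member changed by 0.21 on the log2 scale, 65 of 74 members had a positive value, and the median gene changed by 0.05. In 13 members all 4 RPMI_glcM/B27 libraries lay above all 4 RPMI/B27 libraries (4.4% of all genes), and in no member did they all lie below (2.6%). In HPLM/B27 against RPMI/B27, 6 members rose and 0 fell, where 1.51% rose and 0.893% fell, with a median of 0.19 (60 of 74 positive) against −0.02 for all genes. In 11 members HPLM/B27 was higher without overlap (4.13% of all genes) and in none lower (3.17%). The 4 RPMI/B27 libraries are shared by these comparisons.

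MRPL34, a small bacterial-type protein of the large subunit, showed the largest ratio between groups of all members, 2.1 between HPLM/B27 and Day 30 RPMI/B27. It was at 20.4, 18.2, 16.3 and 14.3 TPM on Day 16 and at 16.7, 12.6, 10.9 and 13.2 TPM in Day 30 RPMI/B27. It was at 22.9, 21.3, 22.7 and 26.7 TPM in RPMI_glcM/B27 and at 26.0, 33.1, 27.1 and 26.2 TPM in HPLM/B27. All 8 libraries of the low-glucose media lay above all 8 others, while the 2 low-glucose media overlapped. The log2 fold change from Day 30 RPMI/B27 was 0.78 ± 0.14 in RPMI_glcM/B27 and 1.03 ± 0.14 in HPLM/B27 (SE, adjusted p = 0.00864 and 0.000819). The second passed under each of the 9 alternatives tried and with any 1 library left out, at 0.90 to 1.20. MRPL34 lies on chromosome 19 from 17292573 to 17306843 and shares 223 bases of exon with ABHD8, which is on the opposite strand and averaged 5.83 TPM.

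MRPL15, another bacterial-type protein of the large subunit, separated the media as cleanly. It was at 19.58, 22.29, 22.45 and 21 TPM on Day 16 and at 18.9, 19.0, 20.5 and 19.6 TPM in Day 30 RPMI/B27. It was at 29.3, 35.3, 31.5 and 29.6 TPM in RPMI_glcM/B27 and at 32.97, 29.61, 30.98 and 32.65 TPM in HPLM/B27. Day 16 and Day 30 RPMI/B27 overlapped, the low-glucose media overlapped with each other, and the lowest low-glucose library lay well above the highest of the other 8. The log2 fold changes from Day 30 RPMI/B27 were 0.66 and 0.67 with an SE of 0.10 (adjusted p = 0.00196 and 0.0013), and those from Day 16 were 0.54 and 0.54 (adjusted p = 0.000966 and 0.000859). All 4 passed after rescaling as well.

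MRPL12, which forms the flexible stalk of the large subunit, also rose in both media against Day 30 RPMI/B27. It was at 47.7, 42.3, 46.0 and 46.7 TPM on Day 16 and at 34.28, 35.32, 35.29 and 23.96 TPM in Day 30 RPMI/B27. It was at 49.5, 62.4, 49.6 and 47.4 TPM in RPMI_glcM/B27 and at 46.3, 54.4, 47.5 and 44.4 TPM in HPLM/B27. The 4 Day 30 RPMI/B27 libraries lay below all others, and the remaining groups lay close together. Its differences were 0.69 and 0.58 on the log2 scale (adjusted p = 0.0113 and 0.0279).

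The other members that rose in RPMI_glcM/B27 against Day 30 RPMI/B27 were MRPS26, MRPL4, MRPL41 and MRPL47, by 0.87, 0.75, 0.72 and 0.59 on the log2 scale (adjusted p = 0.0185, 0.014, 0.0378 and 0.0251). MRPS26, a mitochondria-specific small-subunit protein, was at 30.9, 28.3, 26.6 and 32.5 TPM in RPMI_glcM/B27, above all 12 other libraries, of which the highest was 26.0 TPM. In HPLM/B27 it was at 26.0, 19.6, 18.5 and 17.4 TPM, which overlapped Day 30 RPMI/B27 at 22.3, 18.0, 13.1 and 11.5 TPM. MRPL41, a mitochondria-specific large-subunit protein, was at 62.5, 65.1, 49.2 and 62.0 TPM in RPMI_glcM/B27 and at 35.1, 24.8, 50.4 and 36.8 TPM in Day 30 RPMI/B27, where the third library lay above the lowest of the other medium. It no longer passed after rescaling (adjusted p = 0.133). MRPL4, which descends from a bacterial large-subunit protein, was at 19.4, 18.8, 15.3 and 16.0 TPM against 10.4, 10.7, 11.1 and 7.69 TPM, without overlap.

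In HPLM/B27, the other members that rose against Day 30 RPMI/B27 were MRPS6, MRPL21 and MRPS5, by 0.79, 0.59 and 0.54 on the log2 scale (adjusted p = 0.00204, 0.0337 and 0.0462). MRPL21, a bacterial-type large-subunit protein, was at 66.8, 88.8, 75.2 and 64.1 TPM in HPLM/B27 against 53.6, 59.4, 47.0 and 36.4 TPM. MRPS5, a bacterial-type small-subunit protein, was at 67.4, 80.2, 78.3 and 77.6 TPM against 60.2, 61.7, 50.4 and 38.5 TPM. In both genes the media did not overlap and library 4 of RPMI/B27 was the lowest, and MRPS5 passed in only 2 of the 8 fits with 1 library left out. MRPL21 and MRPL12 passed in 4 of the 8 fits of this comparison, and in RPMI_glcM/B27 against RPMI/B27 MRPL41 passed in 2, MRPS26 in 4 and MRPL47 in 5. Without libraries 3 and 4 of Day 30 RPMI/B27, 7 members rose and 4 fell in HPLM/B27, where 1.53% of all genes rose and 19.4% fell, and 9 rose and 1 fell in RPMI_glcM/B27, where 1.04% rose and 9.31% fell. The median member then stood at 0.05 and 0.11, and the median gene at −0.28 and −0.21. With those 2 libraries left out and the rest rescaled, 21 members rose in HPLM/B27 (6.77% of all genes) and 20 in RPMI_glcM/B27 (4.87%), and none fell (5.58% and 4.27%).

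**Figure D4:**
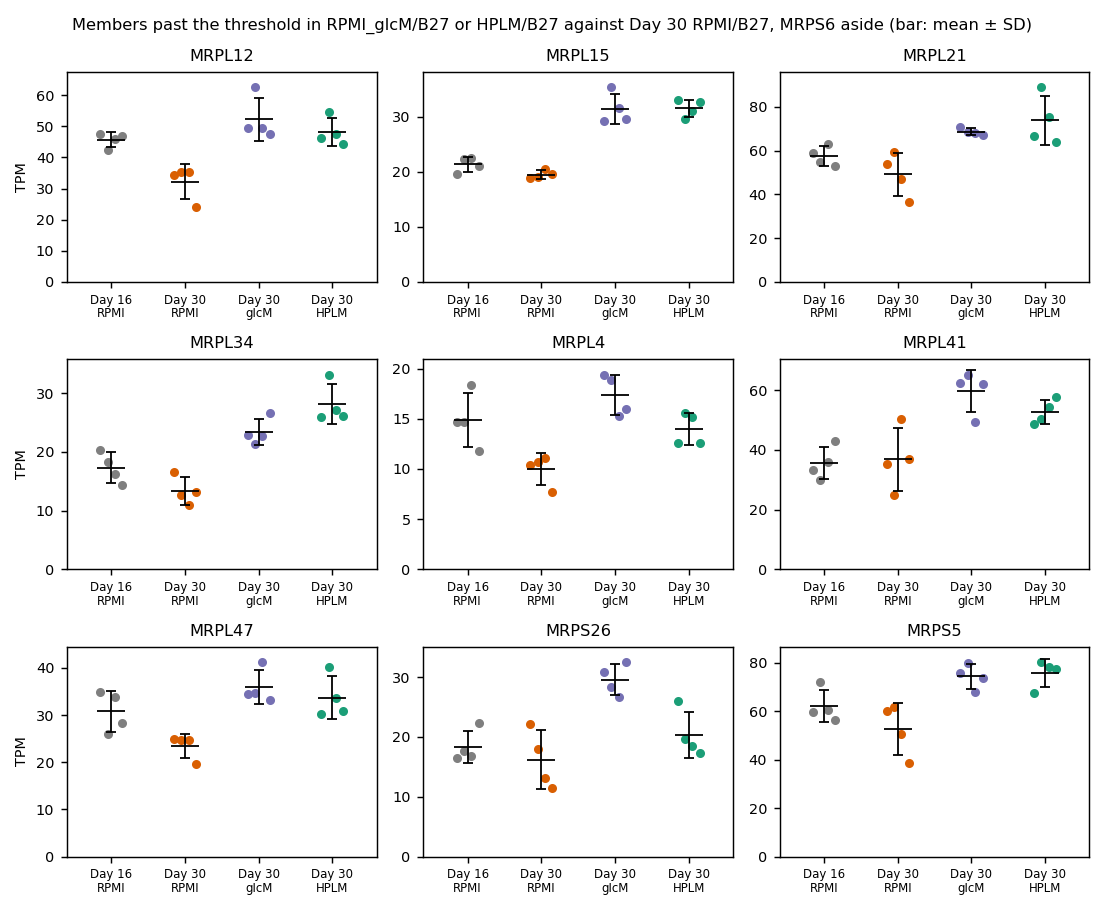
TPM of the 9 members other than MRPS6 that passed in RPMI_glcM/B27 or HPLM/B27 against Day 30 RPMI/B27, by group (points: the 4 libraries, bars: mean ± SD, axes from 0). MRPL15 and MRPL34 show no overlap between the low-glucose media and the 8 other libraries, and all 4 RPMI_glcM/B27 libraries of MRPS26 lie above the 12 others.

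After rescaling, 12 members rose and 0 fell in RPMI_glcM/B27 (6.17% and 5.89% of all genes), and 16 rose and 0 fell in HPLM/B27 (7.05% and 5.87%). In limma-voom on recovered reads, 14 rose and 0 fell in RPMI_glcM/B27 (6.98% and 5.94%), and 16 rose and 0 fell in HPLM/B27 (8.64% and 7.46%). The count of members that rose against Day 30 RPMI/B27 was thus above the background share in each of these fits, and no member fell.

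Between HPLM/B27 and RPMI_glcM/B27, the comparison that sets the media apart at matched glucose, 0 members passed the limma test on TPM, and 11 of all genes did (0.0496% higher and 0.0186% lower). At an unadjusted p under 0.05, 4 members passed, MRPS6 higher in HPLM/B27 and MRPL36, MRPS26 and MRPL14 lower. The median member changed by −0.05 on the log2 scale and the median gene by −0.06. The groups did not overlap in 1 member with HPLM/B27 higher, MRPS6 (2.41% of all genes), and in 2 with HPLM/B27 lower, MRPS26 and MRPL14 (4.86%). After rescaling and in limma-voom on recovered reads, MRPS6 alone was called, where 0.999% of all genes rose with either method and 0.626% and 0.739% fell.

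MRPS6 encodes a bacterial-type protein of the small subunit. It was at 292.7, 287.4, 273.1 and 229.6 TPM on Day 16 (271 ± 28.6, SD, n = 4) and at 227.9, 224.7, 165.8 and 175.9 TPM in Day 30 RPMI/B27 (199 ± 32.3). It was at 244.3, 212.5, 209.4 and 223.3 TPM in RPMI_glcM/B27 (222 ± 15.8) and at 307.4, 327.9, 369.4 and 360.0 TPM in HPLM/B27 (341 ± 28.7). All 4 HPLM/B27 libraries lay above all 12 others, the RPMI-based media on Day 30 overlapped each other, Day 30 RPMI/B27 lay below every Day 16 library, and RPMI_glcM/B27 overlapped Day 16. MRPS6 made up 13.0% to 16.1% of the members' summed level in HPLM/B27 and 8.65% to 12.5% elsewhere.

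The rise of MRPS6 in HPLM/B27 over Day 30 RPMI/B27 was 0.79 ± 0.12 on the log2 scale (SE, adjusted p = 0.00204), and it was 0.79 after rescaling (adjusted p = 9.28e-05) and 0.59 without libraries 3 and 4 of RPMI/B27 (adjusted p = 0.00448). Over RPMI_glcM/B27 it was 0.61 ± 0.12 with an adjusted p of 0.0605, which does not pass, and 0.69 after rescaling with an adjusted p of 0.00165, which does. Over Day 16 it was 0.34 ± 0.12 (adjusted p = 0.052) and 0.67 after rescaling (adjusted p = 8.09e-05). In RPMI/B27 the fall from Day 16 by 0.45 (adjusted p = 0.0171) shrank to 0.12 after rescaling (adjusted p = 0.435). The higher level in HPLM/B27 had the same direction on each scale, and its call against RPMI_glcM/B27 and Day 16 depended on the scale.

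The MRPS6 locus needs care, since it holds a second gene. MRPS6 runs from 34073578 to 34143030 on the forward strand of chromosome 21 (hg38), and SLC5A3, a sodium and myo-inositol cotransporter, runs from 34073578 to 34106260, with its second exon inside the first intron of the main MRPS6 transcript. The first exon, 34073578 to 34073745, is the same 168 bases in both genes and is 18.0% of the 931 bases behind the MRPS6 values. Other annotated MRPS6 transcripts have short exons inside the second exon of SLC5A3, so 265 exon bases are shared in all. The 931 bases behind the MRPS6 values equal the length of the main transcript alone. The SLC5A3 values rest on 11566 bases. The 250 bases before this shared start are shown because both genes start here, with capitals marking matches to GGGGCGGGG, the letters bound by SP-type factors.

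MRPS6, chr21:34073328-34073577, forward strand, GRCh38.p14: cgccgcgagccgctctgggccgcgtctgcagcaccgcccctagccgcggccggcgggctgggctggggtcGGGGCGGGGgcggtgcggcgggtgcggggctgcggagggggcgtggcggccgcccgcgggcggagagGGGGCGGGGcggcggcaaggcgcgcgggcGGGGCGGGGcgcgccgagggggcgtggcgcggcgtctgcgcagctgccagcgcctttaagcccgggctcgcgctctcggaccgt

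This stretch is rich in G and C and holds 3 such matches, the most distant 180 bases before the start. The primers that the study used for MRPS6 by quantitative PCR lie outside the shared exon, and are shown because they separate the genes where read counts may not. Capitals in the forward primer mark the bases of exon 3, so this primer crosses the junction of exons 2 and 3.

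MRPS6 forward primer: cacaacagaggcggGTATTTCT
MRPS6 reverse primer: cgagtgggactgggacaatc

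The forward primer has 22 bases and matches 34125467 to 34142415 across the intron, and the reverse primer has 20 bases and matches exon 3 at chr21:34142543-34142562. Both match all 5 annotated MRPS6 transcripts and not the SLC5A3 transcript, and the product on the main transcript is 169 bases.

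SLC5A3 was at 13.7, 19.0, 13.7 and 13.1 TPM on Day 16 and at 12.7, 12.3, 6.86 and 7.98 TPM in Day 30 RPMI/B27. It was at 13.6, 14.4, 13.8 and 12.7 TPM in RPMI_glcM/B27 and at 12.50, 21.02, 24.60 and 18.93 TPM in HPLM/B27. Libraries 2, 3 and 4 of HPLM/B27 were high and library 1 lay among the Day 30 RPMI/B27 libraries. The difference between HPLM/B27 and Day 30 RPMI/B27 was 0.89 ± 0.21 on the log2 scale (SE, adjusted p = 0.0309), and without libraries 3 and 4 of RPMI/B27 it was 0.55 (adjusted p = 0.0701). Against RPMI_glcM/B27 it was 0.43 (adjusted p = 0.766) and against Day 16 0.33 (adjusted p = 0.241), neither of which passed. After rescaling SLC5A3 rose in HPLM/B27 over RPMI/B27 by 0.90 (adjusted p = 0.000781) and over Day 16 by 0.65 (adjusted p = 0.00293), and stood at 0.51 over RPMI_glcM/B27 (adjusted p = 0.0932). SLC5A3 stood at a small part of the MRPS6 level in every library, and how reads of the shared exon were assigned was not tested.

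**Figure D5:**
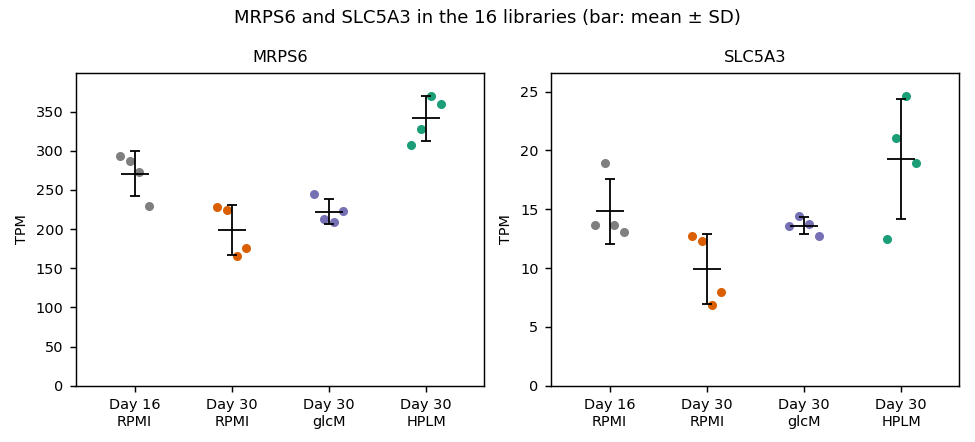
TPM of MRPS6 (left) and of SLC5A3 (right), which share their first exon, in the 16 libraries (points, bars: mean ± SD, axes from 0). All 4 HPLM/B27 libraries of MRPS6 lie above the 12 others, from 307.4 to 369.4 TPM, while SLC5A3 in HPLM/B27 runs from 12.5 to 24.6 TPM and overlaps each other group.

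By role, the members that rose against Day 30 RPMI/B27 in RPMI_glcM/B27 were 6 of the 49 large-subunit members and 1 of the 24 small-subunit members. In HPLM/B27 they were 4 and 2. Of all tested genes 1.36% rose in RPMI_glcM/B27 and 1.51% in HPLM/B27. Among the large-subunit members, 5 of the 30 with a bacterial counterpart and 1 of the 19 without one rose in RPMI_glcM/B27, and 4 and 0 in HPLM/B27. The medians of these classes lay close together, at 0.26 and 0.21 on the log2 scale in RPMI_glcM/B27 and at 0.17 and 0.21 in HPLM/B27. In Day 30 RPMI/B27 against Day 16, 8 of the large-subunit and 5 of the small-subunit members fell, where 17.8% of all genes fell.

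Of the 5 proteins of the particle that carry other names, 1 passed in a comparison. DAP3, a GTP-binding protein of the small subunit, fell from 54.3 to 38.8 TPM between Day 16 and Day 30 in RPMI/B27 (log2 fold change −0.51, adjusted p = 0.0227). The other 4 of this list, AURKAIP1, CHCHD1, GADD45GIP1 and PTCD3, did not pass in any comparison on the TPM scale or after rescaling, nor did DAP3 in the rest on the TPM scale. After rescaling DAP3 stood at −0.18 between Day 30 RPMI/B27 and Day 16 (adjusted p = 0.038), and rose in RPMI_glcM/B27 and HPLM/B27 over RPMI/B27 by 0.22 and 0.23 (adjusted p = 0.0203 and 0.0153). The values of the 2 RNAs of the particle were unlike each other. RNR2, the large-subunit RNA, took 41% to 48% of the TPM of every library. It differed by at most 0.16 on the log2 scale between groups in TPM and by at most 0.50 after rescaling, without passing on either scale. RNR1 ran from 49.5 to 29280 TPM over the libraries and did not pass in any comparison, with a value of 4.26 between Day 30 RPMI/B27 and Day 16. It also spread widely within groups, from 49.5 to 3793 TPM on Day 16 and from 619.4 to 29280 TPM in Day 30 RPMI/B27. The cause of this spread, in the cells or in the making of the libraries, was not tested.

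Of the genes that work with the ribosome, the mitochondrial aminoacyl-tRNA synthetases and related enzymes, which charge transfer RNAs with amino acids, held 22 genes. In Day 30 RPMI/B27 against Day 16, 11 of the 21 that passed the filter fell and none rose, with a median of −0.51 on the log2 scale, where 17.8% of all genes fell and 2.08% rose. After rescaling 6 fell and none rose, with a median of −0.19 (8.91% and 8.62% of all genes). Against Day 16 in TPM, 2 fell in RPMI_glcM/B27 (17.8% of all genes) and 5 in HPLM/B27 (22.4%), and none rose (3.34% and 3.0%). After rescaling 1 rose and 2 fell in RPMI_glcM/B27 (13.4% and 14.2%), and 3 rose and 1 fell in HPLM/B27 (12.9% and 12.5%). SARS2, which charges the serine transfer RNA, fell by 0.93 (adjusted p = 0.0041) from 9.73 to 4.66 TPM. MARS2, the methionine enzyme, averaged 2.69 TPM in Day 30 RPMI/B27, 5.21 TPM in RPMI_glcM/B27 and 4.90 TPM in HPLM/B27, and rose against RPMI/B27 by 0.78 and 0.69 (adjusted p = 0.0271 and 0.0452). QRSL1, which helps make glutamine-charged transfer RNA, rose in HPLM/B27 over RPMI/B27 by 0.55 (adjusted p = 0.0419). Of the 21 genes, 1 thus rose over RPMI/B27 in RPMI_glcM/B27 (1.36% of all genes) and 2 in HPLM/B27 (1.51%). After rescaling 5 and 4 rose (6.17% and 7.05%), and none fell on either scale.

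Of the 16 translation factors 4 fell in Day 30 RPMI/B27 against Day 16, 3 in RPMI_glcM/B27 and 1 in HPLM/B27, where 17.8%, 17.8% and 22.4% of all genes fell. TUFM, the elongation factor that brings charged transfer RNAs to the ribosome, fell in all 3, from 131 TPM on Day 16 to 85.0, 89.4 and 97.7 TPM (log2 fold changes −0.63, −0.54 and −0.42). No translation factor rose or was called between Day 30 media on the TPM scale. After rescaling 1 rose and 4 fell in RPMI/B27 against Day 16 (8.62% and 8.91% of all genes), and 1 rose and 2 fell in RPMI_glcM/B27 (13.4% and 14.2%). In HPLM/B27 5 rose and none fell (12.9% and 12.5%). After rescaling 7 rose in HPLM/B27 over Day 30 RPMI/B27 (7.05% of all genes), 1 in RPMI_glcM/B27 over RPMI/B27 (6.17%) and 1 in HPLM/B27 over RPMI_glcM/B27 (0.999%). LRPPRC, which stabilises mitochondrial messages, was among them, by 0.40 in HPLM/B27 and 0.35 in RPMI_glcM/B27 over RPMI/B27 (adjusted p = 0.00122 and 0.00321).

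Of the 24 assembly factors 3 fell in Day 30 RPMI/B27 against Day 16 on the TPM scale, 1 in RPMI_glcM/B27 and 2 in HPLM/B27, C1QBP in each. Of all genes 17.8%, 17.8% and 22.4% fell. In RPMI_glcM/B27 against RPMI/B27 1 fell, NGRN, by 0.49 (adjusted p = 0.0393), where 0.837% of all genes fell. It did not pass after rescaling (adjusted p = 0.0815). After rescaling no assembly factor fell in any comparison, and 1 rose in each comparison with Day 16. In those comparisons 8.62%, 13.4% and 12.9% of all genes rose and 8.91%, 14.2% and 12.5% fell. Of the 10 genes of mitochondrial transcription and DNA maintenance 2, 1 and 2 fell against Day 16 in TPM and 0, 1 and 1 after rescaling, beside the same shares of all genes. Among them in TPM was MGME1, a nuclease that trims mitochondrial DNA ends, by 0.66, 0.94 and 0.83.

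The promoters of the members, from 250 bases before to 50 bases after the start, were searched on both strands for 5 short motifs. RefSeq sequences of GRCh38.p14 were matched for 67 of the 74 members over the filter. CCGGAAGT, bound by ETS-family factors such as GABPA, was in 11 of them (16.4%), in 8.25% of the 10835 tested genes with a promoter sequence and in 4.44% of all 27305 promoters. AAGATGGCG, bound by YY1, was in 11 (16.4%), in 3.79% of tested genes and in 1.85% of all promoters. GGGGCGGGG was in 16 (23.9%), against 25.8% of tested genes and 16.0% of all promoters. CACGTG, the E-box, was in 6 (8.96%), against 9.36% and 7.43%, and the palindrome bound by NRF1 was in 1 (1.49%), against 2.3% and 1.36%. The SP, E-box and NRF1 letters occurred about as often as in other tested genes, and the ETS and YY1 letters occurred in a larger share of members. No match shows that a factor binds, and genes were not compared by their motifs.

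The position of the matches differed by motif. Of the 13 ETS matches 12 began before the start, with a median position of −39, and of the 12 YY1 matches 8 began after it, with a median of 9. The stretches of 3 members that passed in a comparison are shown as examples, MRPL47 and MRPL20 with an ETS match and MRPL46 with a YY1 match, each in capitals. MRPL46 is shown from 6 bases before its start to 24 after it, and the ATG within the capitals is its start codon.

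MRPL47, chr3:179604639-179604738, reverse strand, GRCh38.p14: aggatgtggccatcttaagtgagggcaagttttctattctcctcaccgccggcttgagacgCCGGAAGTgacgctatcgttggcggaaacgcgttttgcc
MRPL20, chr1:1407294-1407393, reverse strand, GRCh38.p14: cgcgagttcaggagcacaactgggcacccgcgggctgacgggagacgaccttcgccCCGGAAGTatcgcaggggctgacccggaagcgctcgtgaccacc
MRPL46, chr15:88467365-88467394, reverse strand, GRCh38.p14: ttgtgggagaacgaAAGATGGCGgcgcccg

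MRPL47, a bacterial-type large-subunit protein, was at 34.4, 34.7, 41.2 and 33.3 TPM in RPMI_glcM/B27, above all 4 Day 30 RPMI/B27 libraries, which ran from 19.7 to 24.9 TPM. MRPL20, which binds the large-subunit RNA early in assembly in bacteria, and MRPL46, a mitochondria-specific large-subunit protein, rose in RPMI_glcM/B27 against Day 16 by 0.38 and 0.52 (adjusted p = 0.0488 and 0.0106).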

How the data were processed

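The authors made stranded total-RNA libraries (Takara SMARTer) from 16 wells, aligned them to hg38 with STAR 2.5.3a and counted reads per gene with featureCounts 2.0.3. The deposited table holds TPM per gene. Whole reads were recovered from the TPM steps and gave depths of 7744784 to 16183695 reads, at which 1 read per kilobase was 0.139 to 0.3145 TPM. Genes averaging 1 TPM or more were tested with limma 3.58.1 (R 4.3.3, empirical Bayes, trend) on log2(TPM + 1), all 4 groups in 1 fit, with Benjamini-Hochberg adjustment over 16122 genes and a threshold of 0.05; a fold change on this scale understates that of low genes. The rescaled values were TPM divided by median-of-ratios factors. Other alternatives were a pseudocount of 0.1, no filter, 2 groups per fit, the replicate number as a block, RNR1 as a covariate, limma-voom on recovered reads, and libraries left out. Named were MRPS6, the 5 highest and 5 lowest members, the 3 largest changes in each direction per comparison, members called between Day 30 groups, members with overlapping exons, the MRPS18 paralogs, the rRNAs, and the leading called genes of the other lists; MRPL47, MRPL20 and MRPL46 were chosen for their sequences after their values were seen. The members and lists were chosen with earlier results of these data known. The deposit describes 3 wells per medium and its labels 4; all 16 libraries were used. Exons came from GENCODE 44 and promoters from RefSeq (GRCh38.p14).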

Additional observations from a re-analysis of the deposited data

Results flagged for a closer look

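A library was marked where its value stood apart from the other 3 of its group, by Dixon's criterion at its 95% critical value. Here 192 groups of 4 were examined and 13 were marked (6.77%), where chance marks about 1 in 20. In Day 30 RPMI/B27, replicate 4 was low for MRPL12 (24 TPM, the others 34.3 to 35.3) and MRPL47 (19.7, 24.7 to 24.9) and high for MRPL36 (7.3, 4.18 to 4.43), and replicate 2 was high for MRPS17 (10.1, 6.97 to 7.32). In RPMI_glcM/B27, replicate 2 was high for MRPL12 (62.4, 47.4 to 49.6) and MRPL53 (28.7, 24.8 to 25.4), and in HPLM/B27 replicate 2 was high for MRPL34 (33.1, 26.0 to 27.1). On Day 16, replicate 2 was high for MRPL2 (30.8, 20.9 to 21.9) and SLC5A3 (19.0, 13.1 to 13.7) and low for MRPL46 (17.2, 21.4 to 21.6) and MRPS22 (34.5, 38.6 to 39.1), and replicate 4 was high for MRPS7 (26.9, 19.1 to 19.4) and RNR1 (3790, 49.5 to 127). Outside the rule for members, the second entry for MRPL45, MRPL45_1, averaged 4.21 TPM (3.32 to 5.32 over the libraries), while MRPL45 itself averaged 0.128 TPM.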

How the results depend on the processing

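The number of members called depended on the scale and the fit. For Day 30 RPMI/B27 against Day 16 the 13 calls became 3 after median-of-ratios scaling, 0 with only the 2 groups in the fit, 1 with RNR1 as a covariate and 2 in limma-voom, and 1 without libraries 3 and 4 of Day 30 RPMI/B27 or 2 with rescaling as well. For RPMI_glcM/B27 against Day 16 the 13 became 23 after scaling and 24 in voom, and for HPLM/B27 against Day 16 the 7 became 25, 25 and, with 2 groups, 19. For RPMI_glcM/B27 against RPMI/B27 the 7 became 12 after scaling, 14 in voom, 0 with 2 groups and 20 without the 2 libraries and with scaling. For HPLM/B27 against RPMI/B27 the 6 became 16, 16, 1 and 21, and 11 without the 2 libraries alone. Between HPLM/B27 and RPMI_glcM/B27 the 0 became 1, MRPS6, after scaling, in voom, with 2 groups and with RNR1. Leaving out 1 library gave 5 to 23, 5 to 10, 3 to 8, 2 to 9, 3 to 6 and 0 to 0 calls in the 6 comparisons in that order. In the first, the counts were 23 without library 1 or 2 of RPMI/B27, 6 and 5 without 3 and 4, and 5 and 6 without Day 16 library 1 and 3. In the second they were 7 and 5 without Day 16 library 1 and 3, and 6 without RPMI_glcM/B27 library 3 or 4. In the third they were 3 without Day 16 library 1 or HPLM/B27 library 4, and 4 without Day 16 library 2 or 3. In the fourth they were 3 and 2 without RPMI_glcM/B27 library 1 and 2, and in the fifth 3 without HPLM/B27 library 1, 2 or 3. The cause was not tested. The labels do not say whether the replicate numbers pair the samples. Of the same-numbered pairs 6 of 24 correlated over 0.1 (−0.066 to 0.211), and 9 of 24 best matches had their own number, which does not settle it. With the replicate number as a block the calls were 22, 15, 17, 13, 10 and 0. Of the values of named genes, 88 of 125 kept their direction and call after scaling and 121 with a pseudocount of 0.1. The sign turned for MRPS6 in RPMI_glcM/B27 against RPMI/B27 without the 2 libraries (−0.03) and for SLC5A3 in RPMI_glcM/B27 against Day 16 after scaling (0.14), with RNR1 (0.09), in voom (0.15) and without Day 16 replicate 2 (0.01, with a range of −0.16 to 0.01 over single libraries left out). Leaving out libraries 3 and 4 was chosen after seeing the data. MRPS18B, MRPS24, MRPL23 and MRPL45 had too few reads for a test, and why their values were low was not tested.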
